A study of Coccomyxa subellipsoidea C-169 with 6 samples.

Results

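Genes for RNA polymerases II and III, sigma factors, the general initiation factors, Mediator and transcription elongation factors were described in the green alga Coccomyxa subellipsoidea C-169. Members were the 34 genes, of 9490 listed, whose protein name contains RNA polymerase II or III, RNA polymerase sigma, TFII, mediator, TATA, transcription initiation or transcription elongation, without names holding kinase or phosphatase. The choice by name reached only part of the machinery. The large polymerase subunits mostly carry the plain name "DNA-directed RNA polymerase subunit" and fell outside it, as did the TATA-binding protein, and both are described after the members. Of the 34 names, 2 hold only a TMF_TATA_bd domain, and TMF is known in animals as a Golgi protein. These 2 genes were kept in the counts of calls, which were the same without them.

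RNA-seq counts per gene came from 6 libraries of algal cell culture in stationary phase, harvested 3 hours before the dark phase. A set of 3 libraries was labelled as the overexpressor CsubMADS1 OX (called OX-labelled here), and the other 3 came from wild type (WT). The labels describe biological replicates, but give neither the promoter of the construct nor the number of transformed lines. A difference particular to 1 line therefore cannot be told apart from one that goes with the labelled gene. No further treatment or allele is named for either group, and both share strain, growth phase and harvest time.

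RNA polymerase II makes messenger RNA. It is brought to promoters by the general factors TFIIA, TFIIB, TFIID, TFIIE, TFIIF and TFIIH, with Mediator linking it to gene-specific activators. RNA polymerase III makes transfer RNA, 5S ribosomal RNA and other small RNAs with its own factors TFIIIB and TFIIIC, and in yeast and animals it is held back by Maf1 when growth slows. Sigma factors are encoded in the nucleus of plants and algae and direct the bacterial-type polymerase of the plastid to its promoters.

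Library totals ran from 3862791 to 5336375 counts in the OX-labelled group and from 3771499 to 4953851 counts in WT. Levels are CPM, that is, counts relative to library size with TMM scaling, and a count of 3, the floor used here, stood for 0.562 to 0.795 CPM of a library's total. The 24 chlorophyll a-b binding protein genes, which mark a green alga, summed to between 15823 and 23212 CPM in OX-labelled libraries and to between 4801 and 5505 CPM in WT, with none at 0 throughout. The gene with a MADS-box name, COCSUDRAFT_67545, held 68.5, 59.0 and 54.8 CPM in the OX-labelled libraries, against 95.3, 80.2 and 85.0 CPM in WT. Its log2 fold change was -0.51 (SE 0.18, edgeR adjusted p = 0.0535), in the direction opposite to the label. Every direction below is therefore one between the groups as labelled.

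The comparison of both groups asks how transcript levels of the transcription machinery differ in cultures labelled as overexpressing a MADS-box transcription factor. The members took 0.212%, 0.200% and 0.215% of all counts in the OX-labelled libraries, against 0.241%, 0.231% and 0.221% in WT. Their share was thus lower in every OX-labelled library than in any WT library, by a small margin. After TMM scaling the sums overlapped, at 2219.9, 2115 and 2085 CPM in the OX-labelled libraries, against 2399, 2266 and 2110.4 CPM in WT. These are shares of the RNA of a whole culture, so fewer cells with a transcript and less of it per cell cannot be told apart. All 34 members passed the filter on low counts. In edgeR's quasi-likelihood test with Benjamini-Hochberg adjustment over 8575 genes, 2 members were higher in the OX-labelled libraries and 2 lower, while 30 did not pass an adjusted p of 0.05. Over all genes tested 24.6% passed, 15.6% as higher and 8.98% as lower, and the members' 4 calls (11.8%) stood below that background. All genes split into 1337 higher and 770 lower calls, or into 1140 and 995 when scaled by library size only. At an unadjusted p under 0.05 in edgeR, 7 of the 34 members passed, against 3250 of all 8575 genes tested. Without WT replicate 1, and likewise without WT replicate 2, no member was called lower. Lower calls over all genes ran from 313 to 1232 across the fits with 1 library left out. The median log2 fold change was -0.11 over the members and 0.00 over all genes tested (-0.00284 before rounding), with 15 members above 0 and 19 below. The 3 libraries of each group did not overlap for 5 members on the higher side and 7 on the lower side. Among all genes 42.9% had no overlap, 23.1% on the higher and 19.8% on the lower side.

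**Figure D1:**
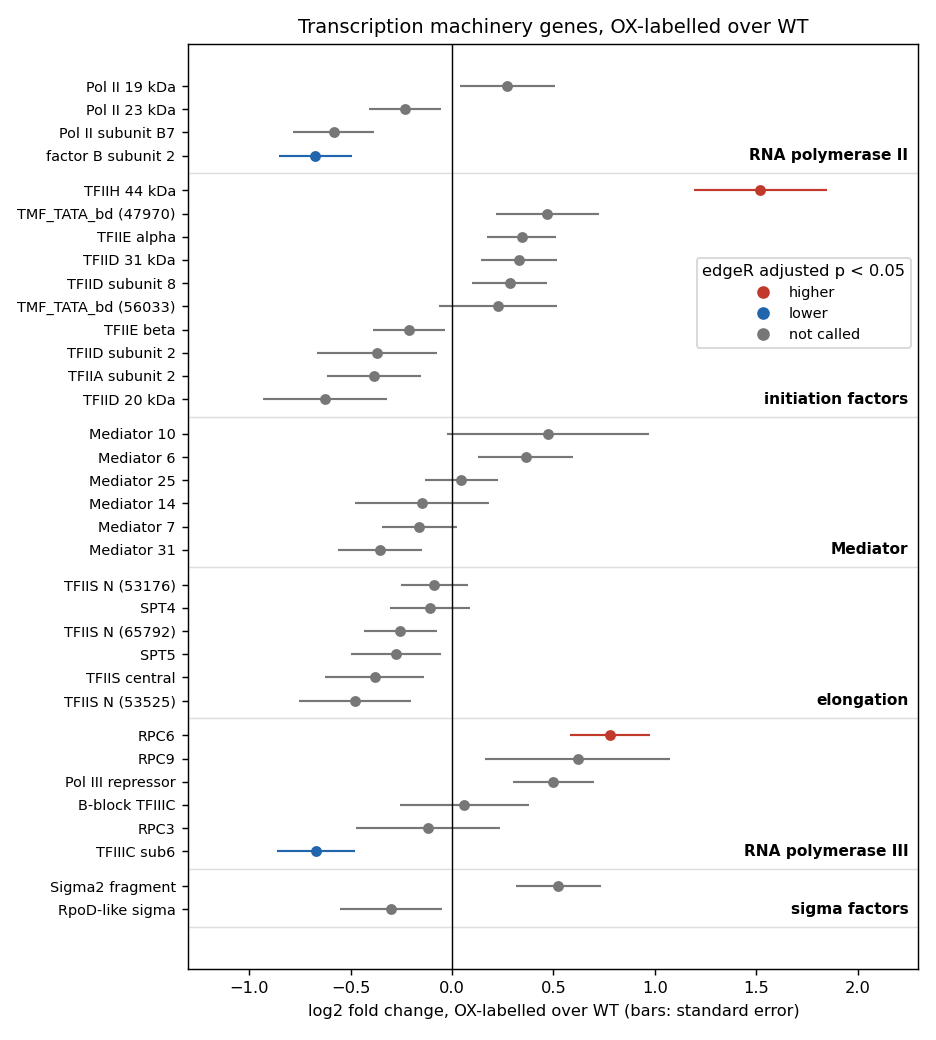
Fitted log2 fold change (x axis, OX-labelled over WT) of each of the 34 members, ordered by role from top to bottom, with bars for the standard error and colour for the edgeR call. TFIIH 44 kDa (1.52) and RPC6 (0.78) are the 2 members called higher, and factor B subunit 2 (-0.68) and TFIIIC sub6 (-0.67) the 2 called lower.

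Of the 4 members in the RNA polymerase II group, 1 was lower and 3 were not called, where 8.98% of all genes tested were called lower. The factor that fell is COCSUDRAFT_18513, RNA polymerase II transcription factor B subunit 2. In yeast that name belongs to Tfb2, a subunit of TFIIH, the factor that opens promoter DNA and also serves nucleotide excision repair. It held 62.6, 54.9 and 46.8 CPM in the OX-labelled libraries, against 83.8 to 90.9 CPM (mean 87.6 ± 3.56, SD, n = 3) in WT. The groups were well apart, and WT was 1.60 times as high (log2 fold change -0.68, SE 0.18, edgeR adjusted p = 0.0178). With 1 WT library fewer the call was lost at nearly the same size, with edgeR adjusted p = 0.064, 0.0506 and 0.0512 without WT replicates 1, 2 and 3.

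The 3 genes named as parts of the polymerase itself were not called. Whether their names stand for 3 different subunits was not checked. RNA polymerase II subunit B7, COCSUDRAFT_24904, carries the name of the subunit that in yeast forms a stalk with Rpb4 where the transcript leaves. Its levels were 122, 115 and 86.5 CPM in the OX-labelled libraries, against 177, 179 and 131 CPM in WT. The groups did not overlap, and the log2 fold change of -0.58 (SE 0.20) lay just beyond the threshold (edgeR adjusted p = 0.0524). It passed in 8 of 14 other fits, among them the DESeq2 Wald test (adjusted p = 0.0333) and edgeR without WT replicate 3 (adjusted p = 0.0444). The gene for the 23 kDa polypeptide, COCSUDRAFT_23738, averaged 119 ± 14.8 CPM in OX-labelled cultures and 139 ± 13.7 CPM in WT (SD, n = 3 each), with overlapping libraries. The 19 kDa polypeptide gene, COCSUDRAFT_34898, averaged 29.5 ± 7.69 CPM in OX-labelled cultures and 24.5 ± 3.34 CPM in WT (SD, n = 3 each). The log2 fold changes were -0.23 (SE 0.18) for the 23 kDa gene and 0.27 (SE 0.23) for the 19 kDa gene.

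Among the 10 genes grouped as initiation factors, 1 was higher, none lower and 9 not called, by edgeR at an adjusted p under 0.05. By that test 15.6% of all genes were called higher and 8.98% lower. At an unadjusted p under 0.05 in edgeR the group also had 1 gene in all, against 3250 of all 8575 genes tested. COCSUDRAFT_14278, named as a fragment of the 44 kDa subunit of TFIIH, held 18.2, 13.4 and 12.6 CPM in the OX-labelled libraries, against 4.63, 7.37 and 3.29 CPM in WT. The lowest OX-labelled library was above the highest WT library. This subunit, Ssl1 in yeast, sits in the core of TFIIH. It was 2.87 times as high in OX-labelled cultures (log2 fold change 1.52, SE 0.33, edgeR adjusted p = 0.00627). Its call held in all 14 other fits (adjusted p 0.000498 to 0.0425), although its WT libraries held only 23, 35 and 13 counts. The 2 TFIIH genes found by name thus moved in opposite directions, both past the threshold.

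TFIID recognises the core promoter and is built from the TATA-binding protein and its associated factors. TFIID subunit 8, COCSUDRAFT_66754, averaged 137 ± 25.2 CPM in OX-labelled cultures and 113 ± 7.99 CPM in WT (SD, n = 3 each; log2 fold change 0.28, SE 0.19). The gene with a TFIID-31kDa domain, COCSUDRAFT_44877, held 44.3, 39.0 and 51.0 CPM in the OX-labelled libraries, against 34.2, 36.2 and 36.4 CPM in WT. That was higher in each OX-labelled library than in any WT library, but did not pass (edgeR adjusted p = 0.222). The gene with a TFIID_20kDa domain, COCSUDRAFT_60971, lay the other way, with 5.49, 7.85 and 6.29 CPM in OX-labelled libraries, against 8.25, 8.85 and 13.4 CPM in WT (edgeR adjusted p = 0.153). These 2 domains are histone folds, known in yeast and animals as TAF9 and TAF12. TFIID subunit 2, COCSUDRAFT_55172, spread widely, at 44.1, 41.0 and 90.0 CPM for the OX-labelled libraries, against 93.1, 55.2 and 77.4 CPM in WT.

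TFIIE recruits TFIIH and consists of an alpha and a beta subunit, whose genes lay in opposite directions here without a call. TFIIE alpha, COCSUDRAFT_49223, held 77.3, 70.6 and 69.9 CPM in the OX-labelled libraries, against 59.9, 58.1 and 53.6 CPM in WT, with no overlap (edgeR adjusted p = 0.158). TFIIE beta, COCSUDRAFT_46310, held 43.5, 51.3 and 48.0 CPM in the OX-labelled libraries, against 54.7, 52.6 and 58.2 CPM in WT, again with no overlap but lower (edgeR adjusted p = 0.406). Neither gene passed in any of the 14 other fits. Subunit 2 of TFIIA, COCSUDRAFT_66080, which steadies the TATA-binding protein on DNA, averaged 123 ± 34.6 CPM in OX-labelled cultures and 161 ± 28.5 CPM in WT (SD, n = 3 each). The 2 TMF_TATA_bd genes, COCSUDRAFT_47970 and COCSUDRAFT_56033, had log2 fold changes of 0.47 (SE 0.25) and 0.23 (SE 0.29), with overlapping libraries.

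**Figure D2:**
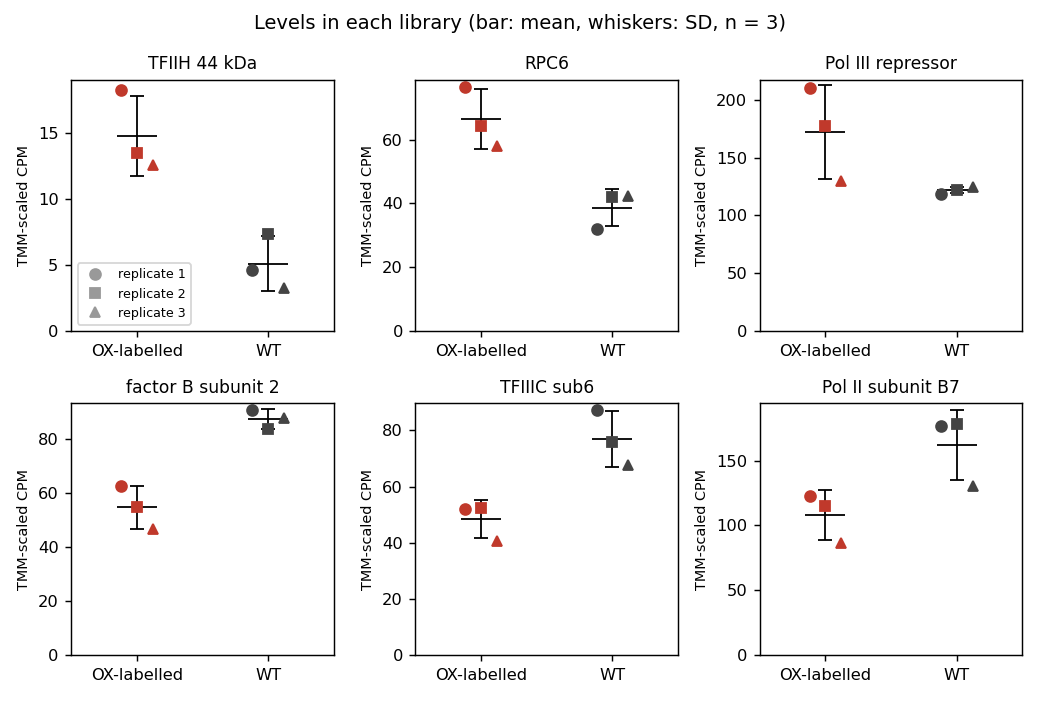
TMM-scaled CPM (y axis, from 0) of 6 members in each OX-labelled and WT library, with replicates by marker shape, the mean as a bar and SD as whiskers (n = 3). In the upper row all OX-labelled points lie above the WT points, narrowly so for the polymerase III repressor (129 against 125 CPM), and in the lower row all lie below.

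Mediator genes showed no call in either direction, by edgeR at an adjusted p under 0.05 and also at an unadjusted p under 0.05. Of all 8575 genes tested, 3250 had an unadjusted p under 0.05. The DESeq2 Wald test called none of the 6 either. Subunit 31, COCSUDRAFT_52630, came nearest, at 65.3, 69.0 and 42.7 CPM for the OX-labelled libraries, against 80.2, 76.7 and 69.8 CPM in WT. Its groups did not overlap, by a narrow margin (log2 fold change -0.35, SE 0.21, edgeR adjusted p = 0.23). Subunit 7, COCSUDRAFT_67675, which forms part of the middle module with subunit 31 in yeast, averaged 45.0 ± 5.86 CPM in OX-labelled cultures and 50.3 ± 2.78 CPM in WT (SD, n = 3 each). Subunit 6, COCSUDRAFT_16273, of the head module that touches the polymerase, held 30.6, 20.8 and 22.1 CPM in the OX-labelled libraries, against 16.3 to 22.1 CPM (mean 19.1 ± 2.91, SD, n = 3) in WT. Subunit 25, COCSUDRAFT_67190, a target of many activators and of stress and light signalling in plants, had a log2 fold change of 0.05 (SE 0.18). The scaffold subunit 14, COCSUDRAFT_63601, held 31.6, 22.6 and 65.1 CPM in the OX-labelled libraries, against 54.5, 36.2 and 40.7 CPM in WT. Subunit 10, COCSUDRAFT_8935, a fragment by name, had 12, 6 and 16 counts in the OX-labelled libraries, against 12, 7 and 6 counts in WT, so a difference of ordinary size was not detectable at this depth.

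All 6 elongation genes had log2 fold changes below 0, from -0.48 to -0.09, where 4306 of all 8575 genes tested lay below 0. None of the 6 passed, at an adjusted or an unadjusted p under 0.05 in edgeR. By the DESeq2 Wald test none passed either. SPT4 and SPT5 form the clamp that keeps the polymerase on its template. SPT4, COCSUDRAFT_33287, averaged 133 ± 25.5 CPM in OX-labelled cultures and 144 ± 22.4 CPM in WT (SD, n = 3 each). SPT5, COCSUDRAFT_56915, held 43.5, 42.4 and 67.1 CPM in the OX-labelled libraries, against 69.2, 52.2 and 63.5 CPM in WT, so that OX replicate 3 reached the WT range and the others did not. The TFIIS central domain is known from the factor that rescues a stalled polymerase by letting it cut its transcript. Its gene COCSUDRAFT_67485 averaged 113 ± 30.9 CPM in OX-labelled cultures and 148 ± 37.3 CPM in WT (SD, n = 3 each). The TFIIS N-terminal domain is shared by several elongation and Mediator proteins, and its 3 genes differed in level. COCSUDRAFT_53176 averaged 128 CPM in OX-labelled cultures and 136 CPM in WT, COCSUDRAFT_65792 averaged 57.1 CPM in OX-labelled cultures and 68.0 CPM in WT, and COCSUDRAFT_53525 averaged 8.01 CPM in OX-labelled cultures and 11.1 CPM in WT. Only COCSUDRAFT_65792 of these 3 had no overlap between groups (log2 fold change -0.25, SE 0.18, edgeR adjusted p = 0.324).

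RNA polymerase III and its factors had 1 higher and 1 lower call among 6 genes, where 24.6% of all genes tested were called in either direction. The subunit RPC6, COCSUDRAFT_35994, which in yeast and humans helps the enzyme find its initiation factors, held 76.5, 64.3 and 58.1 CPM in the OX-labelled libraries, against 32.0, 41.9 and 42.2 CPM in WT. It was 1.72 times as high in OX-labelled cultures, with no overlap (log2 fold change 0.78, SE 0.20, edgeR adjusted p = 0.0143). The call was lost without WT replicate 1 (log2 fold change 0.62, edgeR adjusted p = 0.0983) and without OX replicate 1 (0.66, edgeR adjusted p = 0.0586). The gene with a TFIIIC_sub6 domain, COCSUDRAFT_52573, fell. Its OX-labelled libraries were at 52.2, 52.2 and 40.5 CPM, against 87.3, 76.0 and 67.5 CPM in WT. TFIIIC binds the internal promoters of transfer RNA genes. WT was 1.59 times as high (log2 fold change -0.67, SE 0.19, edgeR adjusted p = 0.0235). Without WT replicates 1 and 2 this call was lost too (edgeR adjusted p = 0.0988 and 0.0688).

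The gene named Repressor of RNA polymerase III transcription, COCSUDRAFT_53145, is the Maf1-type member. It held 210, 177 and 129 CPM in the OX-labelled libraries, against 119, 122 and 125 CPM in WT. The WT libraries were within a few CPM of each other, and OX replicate 3 was barely above them. The log2 fold change of 0.50 (SE 0.20) did not pass (edgeR adjusted p = 0.0857). Without OX replicate 3 it was 0.67 and passed (edgeR adjusted p = 0.00447), and over all 14 other fits its adjusted p ran from 0.00447 to 0.276. RPC3, COCSUDRAFT_43175, held 16.3, 8.52 and 24.1 CPM in OX-labelled libraries, against 24.1, 12.6 and 15.9 CPM in WT. RPC9, COCSUDRAFT_57315, had 12, 18 and 8 counts in OX-labelled libraries, against 10, 10 and 5 counts in WT, too few to resolve its log2 fold change of 0.62 (SE 0.45). A B-block TFIIIC gene, COCSUDRAFT_64071, whose domain is that of the TFIIIC subunit that reads the B-box of transfer RNA genes, averaged 37.4 ± 17.6 CPM in OX-labelled cultures and 35.7 ± 11.2 CPM in WT (SD, n = 3 each).

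Both sigma factor genes failed the test. The Sigma2 domain fragment, COCSUDRAFT_18025, held 113, 83.2 and 127 CPM in the OX-labelled libraries, against 66.6, 67.4 and 91.0 CPM in WT. OX replicate 2 lay below WT replicate 3, so the groups overlapped (log2 fold change 0.52, SE 0.21, edgeR adjusted p = 0.0889). Without OX replicate 2 the gene passed (0.68, edgeR adjusted p = 0.0342). The cyanobacterial RpoD-like sigma factor gene, COCSUDRAFT_54226, held 24.1, 28.7 and 48.0 CPM in the OX-labelled libraries, against 41.0, 38.1 and 44.8 CPM in WT. Its highest value was OX replicate 3, without which it passed as lower (log2 fold change -0.65, edgeR adjusted p = 0.0237).

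Partner subunits were compared within each library, where the scaling of libraries cancels. The ratio of TFIIE alpha to TFIIE beta was 1.77, 1.38 and 1.46 in the OX-labelled libraries, against 1.10, 1.10 and 0.922 in WT. The ratio of the TFIIH 44 kDa gene to factor B subunit 2 was 0.292, 0.245 and 0.269 in the OX-labelled libraries, against 0.0509, 0.0879 and 0.0374 in WT. Both ratios were thus higher in every OX-labelled library than in any WT library. Mediator 31 over Mediator 7 lay slightly lower, at 1.12 to 1.42 in OX-labelled libraries and 1.47 to 1.52 in WT. The ratios of SPT4 to SPT5, RPC6 to RPC3 and TFIID subunit 8 to subunit 2 overlapped between groups. These 6 pairs were chosen after the values were seen and were therefore not tested. A ratio does not cancel a shift shared by the genes of 1 genome scaffold. The scaffolds of TFIIE alpha and TFIIE beta had median log2 fold changes of 0.42 and -0.09. Those of TFIIH 44 kDa and factor B subunit 2 had medians of 0.74 and -0.36. The part of the scaffolds in these ratios was not tested.

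Levels of different genes were compared per kilobase of gene span, which includes introns and so understates long, intron-rich genes. The TFIIS N-terminal gene COCSUDRAFT_53176 stood highest with 136 CPM per kilobase in OX-labelled cultures and 144 in WT. SPT4 followed with 99.7 in OX-labelled cultures and 108 in WT, then TFIIA subunit 2 with 79.4 in OX-labelled cultures and 104 in WT, and RNA polymerase II subunit B7 with 64.2 in OX-labelled cultures and 96.3 in WT. The lowest was the B-block TFIIIC gene, spanning 21369 bases, at 1.75 CPM per kilobase in OX-labelled cultures and 1.67 in WT. RPC3 stood at 3.18 in OX-labelled cultures and 3.43 in WT, and TFIIH 44 kDa at 5.57 in OX-labelled cultures and 1.92 in WT. Members ran from the 3.01 to the 92.6 percentile of all genes tested on this scale, with a median percentile of 49.8.

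Spread between replicates was wider in the OX-labelled group. The coefficient of variation over 3 libraries had a median of 20.1% over the members in OX-labelled cultures and 14.5% in WT, and was larger in OX-labelled cultures for 29 of 34 members. Over all genes tested that median was 19.7% in OX-labelled cultures and 12.5% in WT. In a principal component analysis of all genes, component 2 (19.6% of variance) set OX replicate 3 far from its group mates, and the deviation of that library moved with gene span. Among 9 members spanning at least 5000 bases, OX replicate 3 was above both other OX-labelled libraries in 6 and below both in 3. Among 25 shorter members it was above both in 7 and below both in 12. Across genes, the log2 level of OX replicate 3 over the mean of OX replicates 1 and 2 had a Spearman rho of 0.43 with gene span over 8575 genes and of 0.30 over the 34 members, all from the same libraries. The limit of 5000 bases was set after the values were seen.

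Leaving out OX replicate 3 raised the lower calls among members to 6, with 3 higher. The lower calls that fit added were TFIID subunit 2 (log2 fold change -0.82, edgeR adjusted p = 0.00895), Mediator 14 (-0.69, edgeR adjusted p = 0.0326), SPT5 (-0.52, edgeR adjusted p = 0.047) and the RpoD-like sigma factor. The first 3 of these span 9418 bases or more. Over all genes the lower calls numbered 1232 in that fit, against 770 with all libraries. The part of gene span in the members' calls was not tested beyond a fit with each library's span trend removed, in which the members had 2 higher and 3 lower calls.

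**Figure D3:**
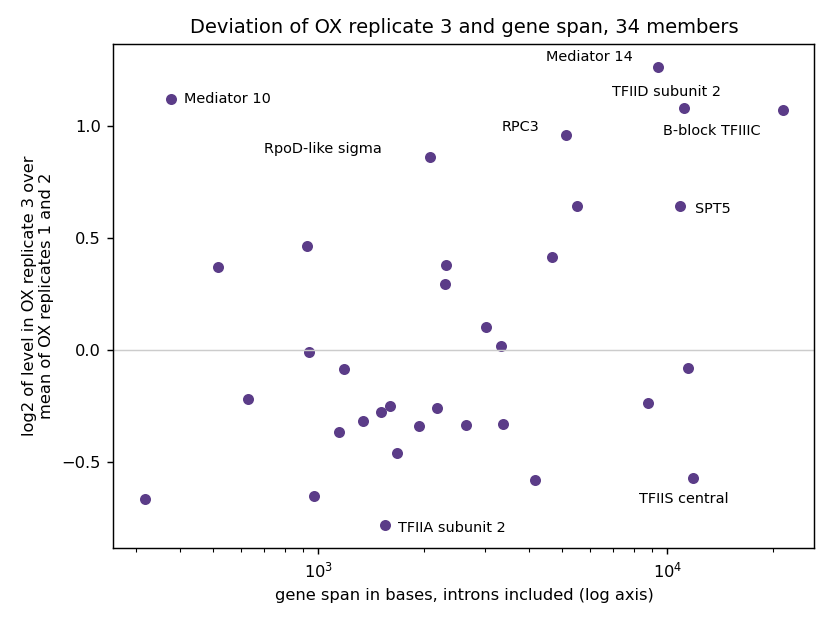
Each point is 1 of the 34 members, with its gene span in bases on a log x axis and, on the y axis, the log2 of its level in OX replicate 3 over the mean of OX replicates 1 and 2. The long genes Mediator 14, TFIID subunit 2, B-block TFIIIC, RPC3 and SPT5 lie above 0. The long genes TFIIS central, Mediator 25 and TFIIE alpha lie below 0, as does the shorter TFIIA subunit 2.

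Both higher members shared a place in the genome. In the gene order of the RefSeq assembly Coccomyxa subellipsoidae v2.0, used for order and span only, TFIIH 44 kDa and RPC6 lie on the same scaffold with 81 listed genes between them. The nearest tested genes, 10 on each side, had a median log2 fold change of 1.28 around either gene. Of these 20 neighbours, 16 around TFIIH 44 kDa and 17 around RPC6 were called higher and 0 lower. The whole scaffold, with 531 tested genes, had a median of 0.74, so RPC6 at 0.78 was below the median of its neighbours and close to that of its scaffold. The polymerase III repressor (neighbour median 0.42) and TFIIE alpha (0.34), on 2 other scaffolds, were the other members with a neighbour median above 0.3, and both had fold changes above 0. The scaffold of TFIIE alpha had a median of 0.42 over 158 tested genes, above the 0.34 of the gene itself, and that of the repressor one of -0.07. Around the remaining 30 members the neighbour medians ran from -0.29 to 0.11, and these held both lower calls and no higher call. The 13 tested neighbours of factor B subunit 2 had a median of -0.05, but its whole scaffold of 236 tested genes had one of -0.36. Around TFIIIC sub6 the neighbour median was 0.06 and the scaffold median -0.07. The other scaffolds that hold members had medians from -0.09 to 0.07. Whether the called members changed apart from their surroundings was not tested.

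**Figure D4:**
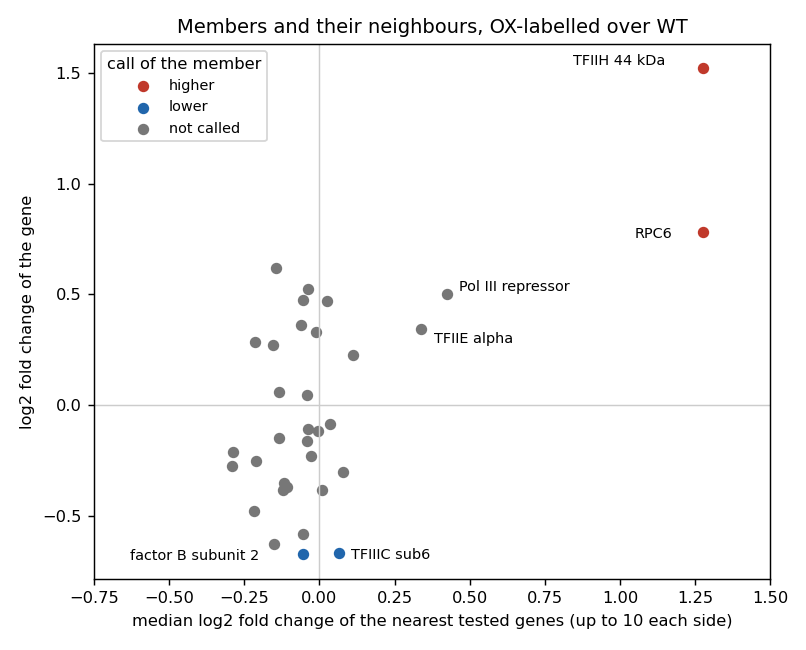
Log2 fold change of each member (y axis, OX-labelled over WT) against the median log2 fold change of its nearest tested genes, up to 10 on each side (x axis). TFIIH 44 kDa and RPC6 lie at a neighbour median of 1.28, and the 2 members called lower lie near 0.

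Other polymerase subunits carried names outside the member rule. Of 24 genes caught by a list of other polymerase names, 9 were judged strays, such as DNA/RNA polymerase fold proteins and Replication protein A. The remaining 15 had 7 lower calls, no higher call and 8 not called, with 14 below 0 and a median log2 fold change of -0.60, where 8.98% of all genes tested were called lower. At an unadjusted p under 0.05 in edgeR 10 of them were lower and 0 higher, where 3250 of all 8575 genes tested passed in either direction. By the DESeq2 Wald test 7 of the 15 were lower and 0 higher. COCSUDRAFT_30489, a DNA-directed RNA polymerase subunit, contained 37.1, 43.3 and 61.8 CPM in the OX-labelled libraries, against 125, 93.1 and 112 CPM in WT. It was the largest fall of the 15, with WT 2.32 times as high (log2 fold change -1.22, SE 0.22, edgeR adjusted p = 0.00241). COCSUDRAFT_26599, another gene of that name, held 183, 259 and 184 CPM in the OX-labelled libraries, against 430, 342 and 416 CPM in WT (log2 fold change -0.93, SE 0.20, edgeR adjusted p = 0.00605). Both passed in all 14 other fits. The names do not tell to which polymerase these 2 genes belong. Also among the 15 are COCSUDRAFT_30170 and COCSUDRAFT_31668, each named plastid-encoded RNA polymerase subunit alpha. They lie on the scaffolds of RPC3 and TFIIE alpha, with 376 and 158 tested genes. Which polymerase they belong to was not checked. COCSUDRAFT_30170 was called lower (log2 fold change -0.74, SE 0.19, edgeR adjusted p = 0.0146). COCSUDRAFT_31668 was not called and was the 1 gene of the 15 above 0 (log2 fold change 0.11, SE 0.19). Lower calls in this list numbered 2 and 4 without WT replicates 1 and 2, 3 without OX replicate 1 and 11 without OX replicate 3. With strays included the list had 9 lower calls and 1 higher, Replication protein A subunit RPA32.

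Of the 2 phosphatases of the polymerase II C-terminal domain that the rule left out, COCSUDRAFT_41020 rose. It held 53.4, 49.1 and 53.8 CPM in the OX-labelled libraries, against 25.7, 35.8 and 21.7 CPM in WT (log2 fold change 0.90, SE 0.22, edgeR adjusted p = 0.0107, or 0.0702 and 0.0683 without WT replicates 1 and 3). The RPAP2 homolog COCSUDRAFT_55793 did not pass (-0.54, SE 0.31, edgeR adjusted p = 0.225). Among 6 genes listed by name under elongation and chromatin, 1 was higher and 2 lower. In 7 of 14 other fits 3 were lower, and 0 were lower without WT replicate 2. Both lower calls carry Elongator names, and whether these genes act in transcription was not checked. Over all genes tested, 15.6% were called higher and 8.98% lower. The histone chaperone subunit SSRP1, COCSUDRAFT_54136, rose to 769 ± 35.6 CPM in OX-labelled cultures, against 472 ± 43.9 CPM in WT (SD, n = 3 each; edgeR adjusted p = 0.0108, or 0.0776 and 0.0673 without WT replicates 1 and 3). Elongator complex protein 5, COCSUDRAFT_44410, fell to 16.2 ± 0.937 CPM in OX-labelled cultures, against 28.5 ± 1.40 CPM in WT (SD, n = 3 each; edgeR adjusted p = 0.0123, or 0.0563 without WT replicate 2). Elongator complex protein 3, COCSUDRAFT_52155, was lower as well (log2 fold change -0.68, SE 0.23, edgeR adjusted p = 0.0478), a call lost when any library but OX replicate 3 was left out (adjusted p 0.0571 to 0.178), and with the replicate number as a block (adjusted p = 0.0542). Elongator complex protein 1, COCSUDRAFT_60949, lay just beyond the threshold, at 45.3, 41.5 and 66.6 CPM in the OX-labelled libraries, against 101, 69.7 and 72.1 CPM in WT. Its groups did not overlap (log2 fold change -0.67, SE 0.23, edgeR adjusted p = 0.0526), and it passed in 8 of 14 other fits (adjusted p 0.00329 to 0.218 over all 14).

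Of 3 genes for messenger RNA ends, both genes named cleavage and polyadenylation specificity factor subunit 2 were higher. Among all genes tested, 15.6% were called higher. COCSUDRAFT_83661 averaged 80.5 ± 8.40 CPM in OX-labelled cultures and 43.6 ± 5.65 CPM in WT, and COCSUDRAFT_53032 averaged 293 ± 33.4 CPM in OX-labelled cultures and 181 ± 9.97 CPM in WT (SD, n = 3 each). Their log2 fold changes were 0.89 (SE 0.19) and 0.70 (SE 0.17), and that of COCSUDRAFT_53032 no longer passed without any 1 WT replicate (edgeR adjusted p = 0.0538, 0.0677 and 0.0665 without WT replicates 1, 2 and 3). Both genes and the phosphatase COCSUDRAFT_41020 lie on the scaffold of TFIIH 44 kDa and RPC6, with neighbour medians of 0.86, 0.91 and 1.04, whereas the neighbours of SSRP1 had a median of 0.09. Of 5 initiation genes outside the rule, chosen after their values were seen, none was called by edgeR or the DESeq2 Wald test, nor had an unadjusted p under 0.05 in edgeR. The TATA-binding protein gene COCSUDRAFT_54712 averaged 213 ± 24.2 CPM in OX-labelled cultures and 227 ± 33.4 CPM in WT (SD, n = 3 each; log2 fold change -0.09, SE 0.18).

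**Figure D5:**
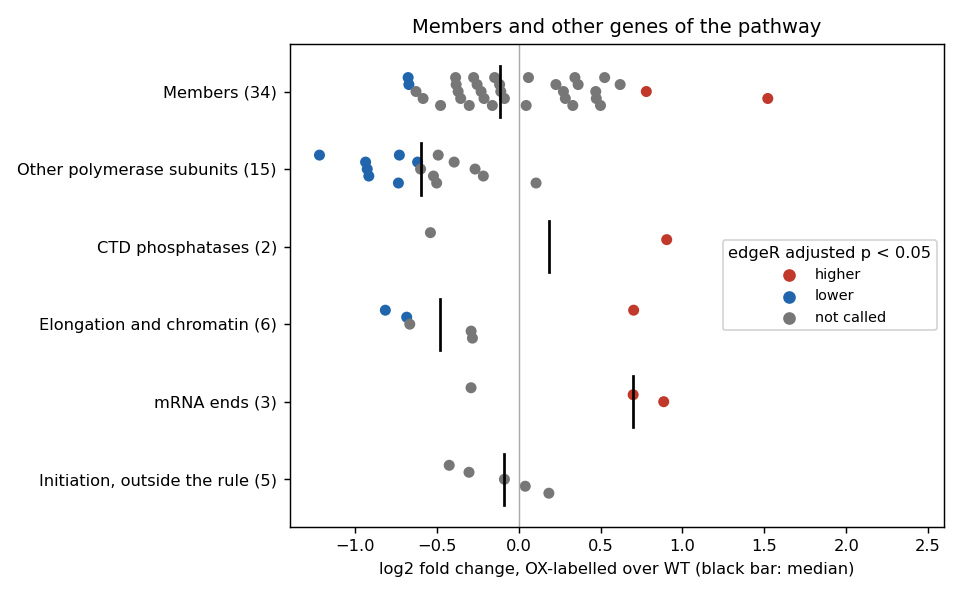
Log2 fold change (x axis, OX-labelled over WT) of the 34 members and of 5 lists of other genes without strays, with a black bar at each median and colour for the edgeR call. The members centre on -0.11 and the 15 other polymerase subunits on -0.60, with 7 of them called lower.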

How the data were processed

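The authors deposited raw counts per gene for each of 6 libraries, 3 OX-labelled and 3 WT. Per the labels' protocols, Trizol RNA and a directional library kit were used. FastQC, Trim Galore, HISAT and HTSeq are named per the submitters' processing notes. The sources used here do not give versions, genome build or strand setting, and reads of overlapping, antisense or near-identical genes may be shared or lost.

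The test was that of edgeR 4.0.16 under R 4.3.3 (filterByExpr, TMM, robust quasi-likelihood F test, two-sided, Benjamini-Hochberg over 8575 genes). Each SE was taken as the absolute log2 fold change divided by the root of F. The biological coefficient of variation was 19.8%. No 2 libraries agreed within sampling noise (lowest chi-square per degree of freedom 6.97). Floors cover counting error only. The scripts were tested on simulated data.

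Members, lists and alternatives were chosen with earlier results of these data known. Named were called members, and per role the 3 highest per kilobase of gene span (coding length was not used here) and the 2 lowest p. The remaining members were named too, after their values were seen. Strays were judged by name. Alternatives used limma 3.58.1 (voom) and DESeq2 1.42.0 as well. RefSeq annotates 9915 genes, and each of the 9490 locus tags was among them. Promoter motifs were not analysed here.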

Additional observations from a re-analysis of the deposited data

How the results depend on the processing

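Higher members numbered 2 under each other scaling, filter and test. Lower members numbered 2 with limma-voom. They numbered 3 with DESeq2 size factors, library size only, no filter, 1 CPM in 3 libraries and the DESeq2 Wald test. RNA polymerase II subunit B7 was the member added in each. At an adjusted p under 0.01, 1 member was higher and 0 lower, against 760 and 206 of all genes. Leaving out 1 library gave 1 to 3 higher and 0 to 6 lower members, 737 to 1627 higher and 313 to 1232 lower genes, a member median of -0.21 to -0.04, and -0.61 to -0.45 for the MADS-box gene. That gene passed with DESeq2 size factors (-0.52), library size only (-0.58), no filter (-0.55), 1 CPM in 3 libraries (-0.55), the DESeq2 Wald test (-0.52) and the gene-span trend removed (-0.54). Of the members not called, 4 changed sign, in 10 combinations of gene and fit, all but 1 of them with a library left out: COCSUDRAFT_63601 (-0.69 to 0.13), COCSUDRAFT_67190 (-0.11 to 0.12, and -0.026 with library size only), COCSUDRAFT_43175 (-0.50 to 0.19) and COCSUDRAFT_64071 (-0.39 to 0.30). The cause was not tested. With the replicate number as a block, members had 2 higher and 3 lower calls. Same-numbered libraries did not deviate together (correlations -0.165, 0.153 and 0.0628), so the numbers were not taken as pairs. The gene-span fit was chosen after seeing the data.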
